A study of Mus musculus with 12 samples.

Results

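Stra8 and 9 further genes of retinoic acid signalling were followed in gonads of E14.5 mouse embryos. The genes were taken by name from the array design and were Stra8, a gene induced by retinoic acid in germ cells, the retinoic acid-degrading enzymes Cyp26b1 and Cyp26a1, the retinoic acid-synthesizing enzymes Aldh1a1 and Aldh1a2, the retinoic acid receptors Rara, Rarb and Rarg, and the binding proteins Crabp1 and Crabp2. They were represented by 14 of the 41174 probes on the array. Of the 10 genes, 9 passed the filter on dim probes and were tested among 18843 genes. Cyp26a1 did not pass, and its levels are given without that test. RNA came from whole gonads of 4 groups with 3 arrays each. Control ovary 1 was Smad4Flox/+ with StellaMerCreMer, control ovary 2 was Smad4Flox/+ without it, and control ovary 3 was Smad4Flox/Flox without it. The Smad4 (Stella) ovaries were Smad4flox/flox with MerCreMer, and all of these ovaries were heterozygous for the Stra8 null allele. DKO ovaries had the Smad4 genotype of the Smad4 (Stella) ovaries and were homozygous for the Stra8 null allele. The control testes were Smad4Flox/+ with StellaMerCreMer and again heterozygous for Stra8. No group was therefore wild type at Stra8. Every dam had received tamoxifen at E9.5 and E10.5, and the mice were of mixed background. The inducible Cre was under the control of the Stella element, which is active in germ cells, so that the deletion of Smad4 was aimed at germ cells while the RNA also held that of all somatic cells of the gonad.

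Retinoic acid is made from retinol in steps of oxidation, the last of which is carried out by enzymes of the Aldh1a family, and it is removed by cytochrome P450 enzymes of the Cyp26 family. It acts through nuclear retinoic acid receptors that pair with retinoid X receptors on DNA, while the Crabp proteins hold it in the cytoplasm. In the fetal mouse gonad, germ cells of the ovary express Stra8 and enter meiosis, whereas in the fetal testis Cyp26b1 made by somatic cells keeps retinoic acid low and germ cells do not enter meiosis until after birth.

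Retinoic acid receptors and their partners bind pairs of a short half-site, and the promoters were searched for them because Stra8, Rarb and Cyp26a1 are known retinoic acid targets. Promoters were taken from RefSeq on GRCm38.p6 as the 250 bases before each annotated start, and 9 of the 10 genes had at least 1. The letters searched on both strands were AGGTCA with AGTTCA, and also GGGTCA and GGTTCA, no 2 of which can match at the same position of a strand. At least 1 of them was held by 6 of the 14 promoters of these genes (42.9%) and by 38.6% of all 32851 promoters in the table. The promoters of Stra8 (chr6:34920698-34920947, plus strand), Rarb (chr14:16575477-16575726, minus strand) and Cyp26a1 (chr19:37697558-37697807, plus strand) are shown 5′ to 3′ along the gene because these genes are the known targets. Capitals mark the half-sites.
Stra8: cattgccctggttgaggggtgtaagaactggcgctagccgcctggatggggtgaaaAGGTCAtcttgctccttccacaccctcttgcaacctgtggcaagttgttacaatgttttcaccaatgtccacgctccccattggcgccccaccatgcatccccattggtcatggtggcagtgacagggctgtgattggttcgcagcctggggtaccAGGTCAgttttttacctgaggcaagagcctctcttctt
Rarb: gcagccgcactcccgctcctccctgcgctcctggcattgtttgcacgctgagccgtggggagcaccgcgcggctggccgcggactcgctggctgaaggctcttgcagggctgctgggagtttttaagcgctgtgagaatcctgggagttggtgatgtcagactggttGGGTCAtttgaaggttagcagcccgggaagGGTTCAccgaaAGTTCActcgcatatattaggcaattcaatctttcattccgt
Cyp26a1: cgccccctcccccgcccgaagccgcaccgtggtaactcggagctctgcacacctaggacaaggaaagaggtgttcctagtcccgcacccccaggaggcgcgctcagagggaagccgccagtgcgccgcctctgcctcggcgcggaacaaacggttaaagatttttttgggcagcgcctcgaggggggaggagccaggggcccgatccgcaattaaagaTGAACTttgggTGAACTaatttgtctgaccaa
The Stra8 promoter held AGGTCA at 194 and at 38 bases before the start, not as a close pair of the letters searched. Other spellings of the half-site were not searched, so a pair that includes one would be missed. The letters GGGTGA, which were not searched, stand 2 bases before the AGGTCA at 194. The letters AGGTCA, on either strand, were in 14.0% of all promoters. The Rarb promoter held 3 half-sites, and 2 of them formed a direct repeat with a spacing of 5 bases that began 53 bases before the start. The Cyp26a1 promoter held such a repeat on the opposite strand, between 32 and 16 bases before the start. Of the 4 Rara promoters, 1 held 4 half-sites, and Rarg and Aldh1a1 had 1 half-site each, none of them in such a repeat. A direct repeat with a spacing of 5 was found in 29 of all 32851 promoters (0.0883%). No half-site of the letters searched was found in the promoter windows of Cyp26b1, Aldh1a2 or Crabp1. These matches describe letters in the windows, and no binding was measured.

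Brightness of each spot was expressed as log2 of the processed intensity relative to the 75th percentile of its array, so that a level of 0 is that percentile. The 75th percentile lay between 476 and 997 intensity units over the 12 arrays, and 58.8% to 70.5% of probes were well above background. Levels of different genes cannot be set against each other on this scale, since each probe has its own response. Precision is limited by the 3 arrays of each group, and nothing in the labels says that replicates of a group came from separate litters, so p-values measure the spread between these samples. The arrays lay on 3 slides. Slide 1 held the control testes and control ovary 1, slide 2 held control ovaries 2 and 3 with DKO ovaries 1 and 2, and slide 3 held the Smad4 (Stella) ovaries with DKO ovary 3. Smad4 (Stella) and control ovaries thus shared no slide, and their comparison is confounded with slide. A fit with the slide as a block links them only through the DKO ovaries. A gene was called when its adjusted p (limma, Benjamini-Hochberg over all genes) was under 0.05 and its change was at least 1.5-fold. Comparisons with control ovaries share those 3 arrays, and both comparisons of DKO ovaries share the DKO arrays.

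Between control testes and control ovaries, 6 of the 9 tested genes were called, against 34.0% of all genes. Cyp26b1 and Aldh1a1 were higher in testes, and Stra8, Aldh1a2, Rarb and Crabp1 were lower. Arrays of the 2 groups did not overlap for 7 of the 9, against 58.4% of all genes. Between DKO and control ovaries 1 of the 9 genes was called, against 14.7% of all genes, and this was Stra8. Between DKO and Smad4 (Stella) ovaries 1 of the 9 was called, against 8.45% of all genes, and it was again Stra8. Between Smad4 (Stella) and control ovaries 0 of the 9 were called by limma, 0 had an unadjusted p under 0.05, and 0 were called by the methods' t-test, against 0.271% of all genes called by limma. The median log2 fold change of the 9 genes was 0.42 in testes against control ovaries, 0.10 in DKO against control ovaries, -0.10 in Smad4 (Stella) against control ovaries and -0.02 in DKO against Smad4 (Stella) ovaries. The corresponding medians of all genes were 0.02, 0.00, -0.02 and 0.01. Among the ovaries, arrays did not overlap for Stra8 between DKO and control ovaries (32.9% of all genes), for none of the 9 genes between Smad4 (Stella) and control ovaries (28.1%), and for 3 between DKO and Smad4 (Stella) ovaries (31.2%), which were Stra8, Aldh1a1 and Rara. Rarg and Crabp2 passed the filter only through their levels in testes. The testis median of 0.42 is the value of Rarg, and Crabp2 is among the 7 genes without overlap there. Both figures thus depend in part on that filter, and the sign of the median describes no shift of the genes as a set.

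**Figure D1:**
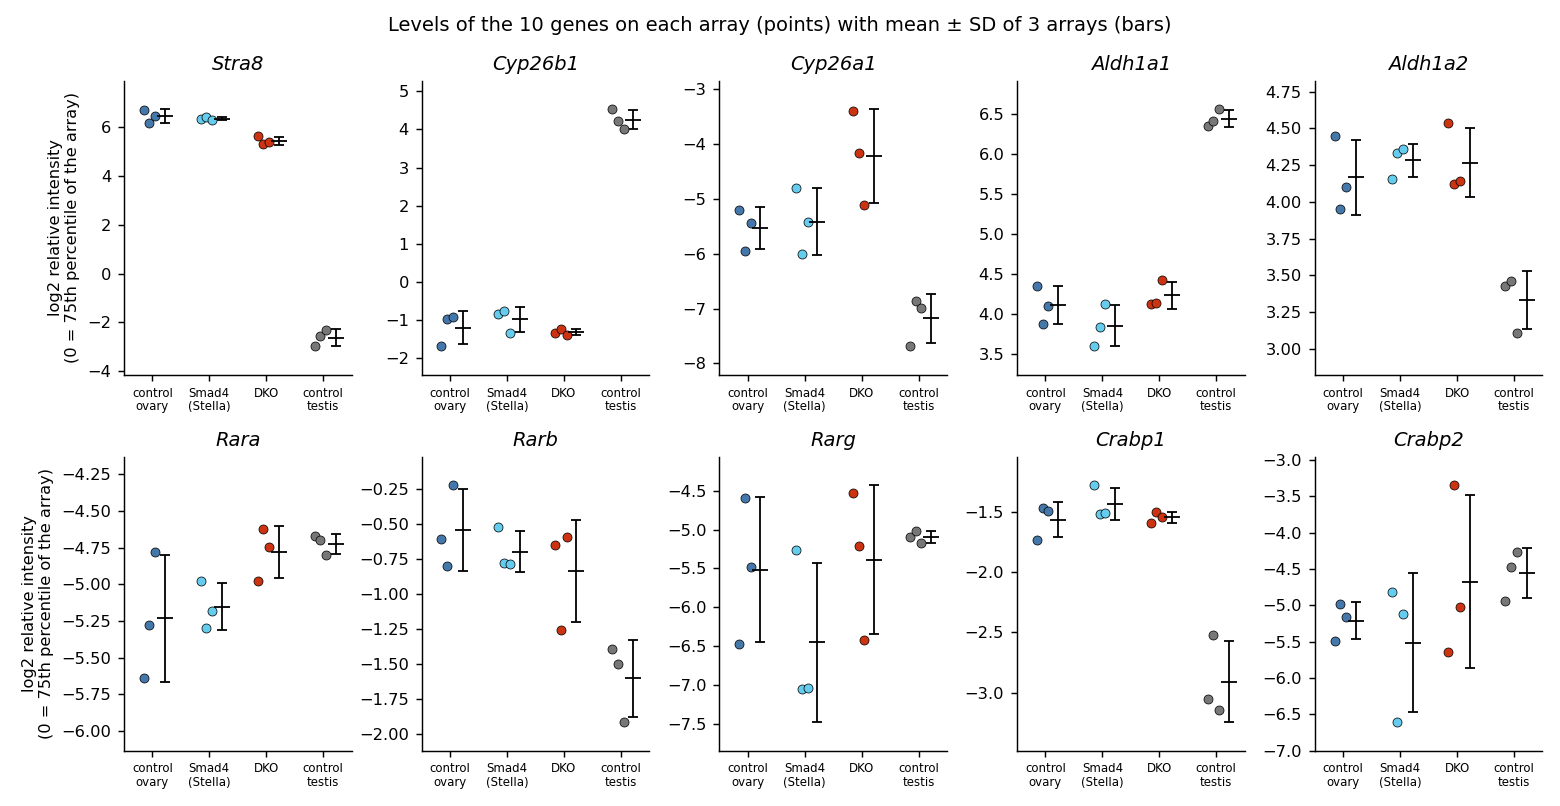
Levels of the 10 genes on each of the 12 arrays, as log2 intensity relative to the 75th percentile of the array, in control ovaries, Smad4 (Stella) ovaries, DKO ovaries and control testes; points are arrays, bars are the mean ± SD of 3 arrays, and each panel has its own axis. Testes stand apart for Stra8, Cyp26b1, Aldh1a1, Aldh1a2, Rarb and Crabp1, and DKO ovaries stand below the other ovaries for Stra8.

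Stra8, whose product is needed for germ cells to enter meiosis, is a target of retinoic acid in germ cells. Its probe lies at chr6:34889231-34889290 (mm9, plus strand), and whether this stretch is part of the deletion in the null allele is not given in the sources used here, so the probe does not test the Stra8 genotype. The levels of Stra8 were 6.71, 6.16 and 6.46 for control ovaries, 6.34, 6.41 and 6.28 for Smad4 (Stella) ovaries, 5.61, 5.28 and 5.38 for DKO ovaries, and -2.98, -2.56 and -2.32 for control testes. All DKO ovaries were below all other ovaries, the control and Smad4 (Stella) ovaries overlapped, and all testes were far below every ovary while still well above background on 3 of 3 arrays. Against control ovaries, Stra8 was 534-fold lower in testes (log2 fold change -9.06 ± 0.18, SE, adjusted p = 1.14e-09). In DKO ovaries it was 2.02-fold lower than in control ovaries (-1.02 ± 0.18, adjusted p = 0.00271) and 1.89-fold lower than in Smad4 (Stella) ovaries (-0.92 ± 0.18, adjusted p = 0.0101). A transcript detected by this probe was thus still at a level of 5.43 ± 0.17 (SD, n = 3) in ovaries labelled Stra8−/−. Between Smad4 (Stella) and control ovaries the difference was -0.10, with a 95% interval from -0.50 to 0.31, and its sign turned to 0.10 with the slide as a block, to 0.01 after quantile normalization and to 0.03 without control ovary 1. Within slides, the difference was -0.86 on slide 2 (2 DKO against 2 control ovaries), -0.96 on slide 3 (1 DKO against 3 Smad4 (Stella) ovaries) and -9.33 on slide 1 (3 testes against 1 control ovary). With the slide as a block the call of DKO against control ovaries held (-0.86, adjusted p = 0.0252), that of DKO against Smad4 (Stella) ovaries did not (-0.96, adjusted p = 0.0686), and that of testes did (-9.33, adjusted p = 7.75e-07). Both DKO calls were also lost with the methods' t-test, at adjusted p-values of 0.0608 and 0.0611. In whole gonads, fewer cells of a type and less RNA per cell cannot be told apart. Of 8 markers of germ cells of both sexes, 3 (Tdrd1, Piwil2 and Dppa3) were called higher in DKO than in control ovaries and 1 (Rnf17) lower. Ddx4, Dazl, Mov10l1 and Mael were not called, and the median log2 fold change of the 8 was 0.09. For all genes the shares were 6.69% higher and 7.98% lower. The calls of Tdrd1, Piwil2, Dppa3 and Rnf17 had the same directions in testes against control ovaries, where Dazl was also lower. The mean level of the 8 ranged from 1.96 to 2.19 in DKO ovaries and from 1.41 to 1.79 in control ovaries. In Smad4 (Stella) ovaries it ranged from 1.25 to 1.61. Whether the number of germ cells has a part in the Stra8 difference was not tested.

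Cyp26b1, the main enzyme that breaks down retinoic acid in the fetal testis, showed the reverse pattern between the sexes and no called difference among ovaries. Its probe is at chr6:84521952-84522011 (mm9, minus strand). The levels of Cyp26b1 were 4.52, 4.22 and 4.02 for testes, -1.69, -0.97 and -0.93 for control ovaries, -0.84, -0.76 and -1.35 for Smad4 (Stella) ovaries and -1.34, -1.23 and -1.38 for DKO ovaries. Every testis was far above every ovary, and the 3 ovary groups overlapped. Cyp26b1 was 43.7-fold higher in testes than in control ovaries (log2 fold change 5.45 ± 0.23, adjusted p = 6.46e-08), and 5.94 on slide 1. Among ovaries the differences were -0.12 for DKO against control (95% interval -0.62 to 0.38), 0.22 for Smad4 (Stella) against control (-0.28 to 0.72) and -0.34 for DKO against Smad4 (Stella) (-0.84 to 0.16). The intervals leave out the size of the testis difference, whose own ran from 4.95 to 5.95. Markers of somatic cells moved with Cyp26b1 between the sexes. Of 8 Sertoli cell markers 7 were higher in testes, as were 4 of 4 fetal Leydig cell markers and 5 of 5 interstitial markers, while 6 of 6 pregranulosa markers were lower. Of all genes, 17.2% were higher and 16.8% lower there. Between DKO and control ovaries 1 of the 8 Sertoli markers was called higher (Dmrt1, which germ cells express as well), as was 1 of the 5 interstitial markers (Ptch1). None of the 4 Leydig and 6 pregranulosa markers was called, against 6.69% of all genes higher and 7.98% lower. The mean level of the Sertoli list ranged from -2.50 to -2.12 in DKO ovaries, from -2.80 to -2.68 in control ovaries and from 1.57 to 1.79 in testes.

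Cyp26a1, a second enzyme of retinoic acid breakdown and itself a retinoic acid target, was near background throughout. It was well above background on 1 of 3 control ovary arrays, 2 of 3 Smad4 (Stella), 2 of 3 DKO and 0 of 3 testis arrays (probe at chr19:37775566-37775625, mm9, plus strand). The levels of Cyp26a1 were -5.20, -5.96 and -5.45 for control ovaries, -4.81, -6.01 and -5.43 for Smad4 (Stella) ovaries, -3.41, -4.16 and -5.11 for DKO ovaries and -7.69, -6.86 and -6.99 for testes. The testes lay below every ovary, and the DKO ovaries lay above the control ovaries but overlapped the Smad4 (Stella) ovaries. With no testis array and 1 control ovary array above background, no fold is given between them. With the filter lifted, limma over 29182 genes did not call DKO against control ovaries (log2 fold change 1.31, adjusted p = 0.0994) or DKO against Smad4 (Stella) ovaries (1.19, adjusted p = 0.185), and it called testes lower than control ovaries (adjusted p = 0.0197) at intensities that were mostly not above background.

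The 2 enzymes that make retinoic acid went in opposite directions between testes and ovaries. Aldh1a1 (chr19:20717764-20717823, mm9, plus strand) was at 6.35, 6.40 and 6.55 for testes, 4.34, 3.87 and 4.10 for control ovaries, 3.60, 3.84 and 4.12 for Smad4 (Stella) ovaries and 4.12, 4.14 and 4.42 for DKO ovaries. All testes were above all ovaries. Aldh1a1 was 5.03-fold higher in testes than in control ovaries (2.33 ± 0.16, adjusted p = 1.63e-06). DKO arrays lay just above Smad4 (Stella) arrays without overlap, but the difference of 0.38 did not pass after adjustment (adjusted p = 0.166 by limma). Aldh1a2, the enzyme on which most retinoic acid synthesis in the embryo depends, was at 4.45, 3.95 and 4.10 for control ovaries, 4.16, 4.33 and 4.36 for Smad4 (Stella) ovaries, 4.54, 4.12 and 4.14 for DKO ovaries and 3.43, 3.46 and 3.11 for testes (chr9:71143931-71143990, mm9, plus strand). The 3 ovary groups overlapped and the testes lay below all of them. Aldh1a2 was 1.78-fold lower in testes (-0.84 ± 0.16, adjusted p = 0.00189). Between DKO and control ovaries the difference was 0.12 for Aldh1a1 (95% interval -0.23 to 0.48) and 0.10 for Aldh1a2 (-0.26 to 0.47). On slide 1 the testis differences were 2.09 for Aldh1a1 and -1.12 for Aldh1a2.

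Of the 3 receptors, Rarb alone was called, and it was lower in testes. Its probe at chr14:17263511-17263570 (mm9, minus strand) was printed 10 times on each array, and the SD between the spots used was 0.02 to 0.08 per array. The levels of Rarb were -0.61, -0.80 and -0.22 for control ovaries, -0.52, -0.78 and -0.79 for Smad4 (Stella) ovaries, -0.65, -1.26 and -0.60 for DKO ovaries and -1.40, -1.499 and -1.92 for testes. Testes were below every ovary, with DKO ovary 2 nearest to them. Rarb was 2.09-fold lower in testes than in control ovaries (-1.06 ± 0.22, adjusted p = 0.00222), a call that was lost with normexp background correction (-0.77, adjusted p = 0.0621). In DKO ovaries the difference from control ovaries was -0.29 (95% interval -0.77 to 0.19). A second Rarb probe was above background on 1 control ovary array and 1 DKO array and was left out. Rara (chr11:98831859-98831918, mm9, plus strand) was dim, at -5.64, -5.28 and -4.78 for control ovaries, -4.98, -5.30 and -5.18 for Smad4 (Stella) ovaries, -4.97, -4.62 and -4.74 for DKO ovaries and -4.67, -4.70 and -4.80 for testes. Control ovary 3 lay among the DKO ovaries and the testes, and the other control ovaries lay below them. The Rara difference was 0.45 ± 0.19 in DKO against control ovaries (adjusted p = 0.125 by limma) and 0.51 ± 0.19 in testes (adjusted p = 0.0518 by limma), neither called. Without control ovary 3 both were called, at 0.68 (adjusted p = 0.0159) and 0.73 (adjusted p = 0.00463). The testis difference was also called with the slide as a block, at 0.91 (adjusted p = 0.0122), and after quantile normalization, at 0.59 (adjusted p = 0.00802). Rarg had 4 probes, of which 2 passed the filter, and the gene varied within each ovary group by more than the group means differed. Its levels spanned -6.47 to -4.59 in control ovaries, -7.05 to -5.27 in Smad4 (Stella) ovaries, -6.42 to -4.53 in DKO ovaries and -5.17 to -5.02 in testes. With an SE of 0.61, the 95% interval of the Rarg difference between DKO and control ovaries ran from -1.23 to 1.49.

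Crabp1, a cytoplasmic retinoic acid-binding protein, was lower in testes and closely alike in level among the ovaries. The levels of Crabp1 were -1.73, -1.47 and -1.495 for control ovaries, -1.28, -1.52 and -1.504 for Smad4 (Stella) ovaries, -1.59, -1.498 and -1.54 for DKO ovaries and -3.06, -2.52 and -3.14 for testes (chr9:54616192-54616251, mm9, plus strand). Testes lay below all ovaries. Crabp1 was 2.54-fold lower in testes than in control ovaries (-1.34 ± 0.16, adjusted p = 6.44e-05), a call that was lost with normexp background correction (-0.80, adjusted p = 0.0848). The 95% interval of the Crabp1 difference between DKO and control ovaries was -0.33 to 0.37. Crabp2, its paralog, was dim, at -5.49, -4.98 and -5.16 for control ovaries, -4.82, -6.61 and -5.12 for Smad4 (Stella) ovaries, -5.64, -3.35 and -5.03 for DKO ovaries and -4.94, -4.47 and -4.26 for testes (chr3:87752682-87752741, mm9, plus strand). DKO ovary 2 was the brightest array for Crabp2. The difference between testes and control ovaries was 0.65 ± 0.57 (adjusted p = 0.378), and that between DKO and control ovaries was 0.54 (95% interval -0.73 to 1.81).

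**Figure D2:**
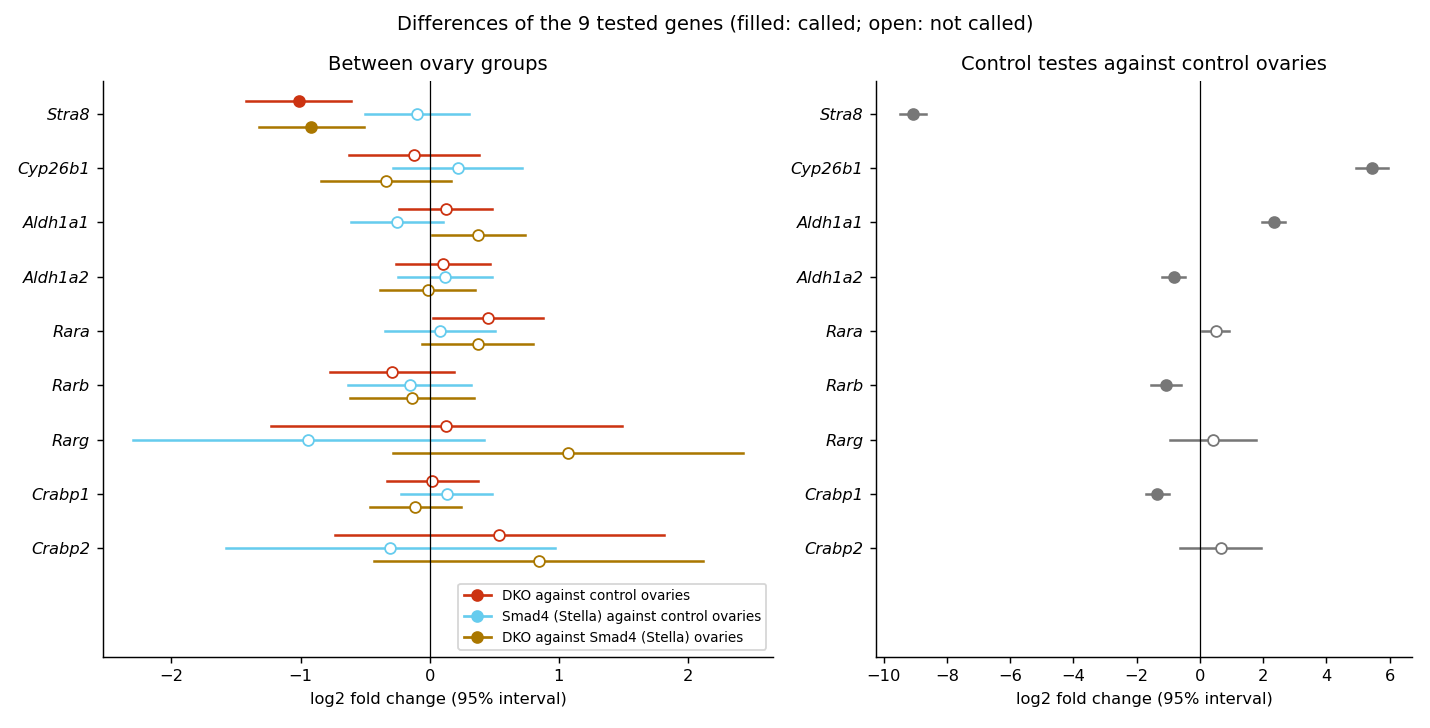
Log2 fold changes of the 9 tested genes with 95% intervals, between the ovary groups on the left and between control testes and control ovaries on the right; filled points were called and open points were not. Stra8 is the only gene with a filled point among ovaries, at -1.02 and -0.92, while 6 genes have one in testes.

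Among the ovaries, the 8 tested genes other than Stra8 gave 24 differences, of which none was called by limma and 2 had an unadjusted p under 0.05, those of Rara (DKO against control) and Aldh1a1 (DKO against Smad4 (Stella)) given above. For Cyp26b1, Aldh1a1, Aldh1a2, Rara, Rarb and Crabp1 the differences lay between -0.34 and 0.45, and their 95% intervals lay between -0.84 and 0.88. For Rarg and Crabp2 they lay between -0.94 and 1.07 with intervals between -2.30 and 2.42, which at this precision include changes of several fold in either direction.

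Genes around meiotic entry stood lower in DKO ovaries as a list, with Rec8 and Dazl apart. The list held 13 genes, of which 11 were tested and Meiosin, the partner of Stra8, was not on the array. In DKO against control ovaries 8 of the 11 were called lower and 1 higher, against 7.98% and 6.69% of all genes, and the median log2 fold change was -1.37. The largest falls were in Dmc1, the meiotic recombinase (-3.88 ± 0.16, adjusted p = 9.45e-07), Meioc, a factor that keeps germ cells in meiosis (-3.82 ± 0.39, adjusted p = 0.000105), and Mei1, which is required for meiotic recombination (-3.62 ± 0.38, adjusted p = 0.000122). Spo11, which makes the meiotic DNA breaks, fell by 2.29, Sycp3 of the chromosome axis fell by 1.81, and Ythdc2, the RNA helicase that works with Meioc, fell by 1.37. Msx2 and Msx1, homeobox genes that respond to BMP, fell by 1.12 and 0.89, and the call of Msx1 was lost without control ovary 2, DKO ovary 1 or DKO ovary 3. The Msx1 call was also lost without the filter, in a fit of only the 2 groups and with the methods' t-test. With normexp background correction the calls of Spo11, Ythdc2, Msx2 and Msx1 were lost, and those of Dmc1, Meioc, Mei1 and Sycp3 held. Rec8, a meiotic cohesin that responds to retinoic acid, was at 3.43, 2.56 and 2.53 for control ovaries, 2.97, 2.84 and 3.37 for Smad4 (Stella) ovaries, 2.98, 2.74 and 3.17 for DKO ovaries and -1.21, -1.18 and -0.26 for testes. The ovary groups overlapped throughout, and the Rec8 difference was 0.13 ± 0.30 in DKO against control ovaries (adjusted p = 0.814) and -3.72 ± 0.30 in testes (adjusted p = 4.87e-06). Dazl, a germ cell RNA-binding protein needed for the response to retinoic acid, likewise differed by -0.08 (adjusted p = 0.736) in DKO ovaries and by -1.62 (adjusted p = 7.79e-06) in testes. Nanos2, the male germ cell RNA regulator that represses Stra8, was at -2.18, -2.17 and -3.70 for DKO ovaries, -0.55, -0.32 and 0.40 for testes, and above background on 0 of 3 control ovary arrays and 1 of 3 Smad4 (Stella) arrays. It was at least 7.45-fold higher in DKO than in control ovaries (adjusted p = 0.000344) and at least 43.0-fold higher in testes (adjusted p = 5.63e-06). With normexp background correction the Nanos2 call in DKO against control ovaries was lost and that in testes held. In Smad4 (Stella) against control ovaries 0 of the 11 genes were called, with a median of -0.63, where 0.271% of all genes were called. All Smad4 (Stella) arrays nonetheless lay below all control ovary arrays for Meioc, Sycp3, Dmc1, Spo11, Mei1, Ythdc2, Msx1 and Msx2. The groups overlapped for Rec8, Dazl and Nanos2, and 28.1% of all genes had no overlap between these groups. Against Smad4 (Stella) ovaries, the DKO ovaries had 6 genes called lower and 1 higher, with a median of -1.004, against 4.07% and 4.38% of all genes. In testes 10 were lower and 1 higher, with a median of -3.63, against 16.8% and 17.2% of all genes.

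**Figure D3:**
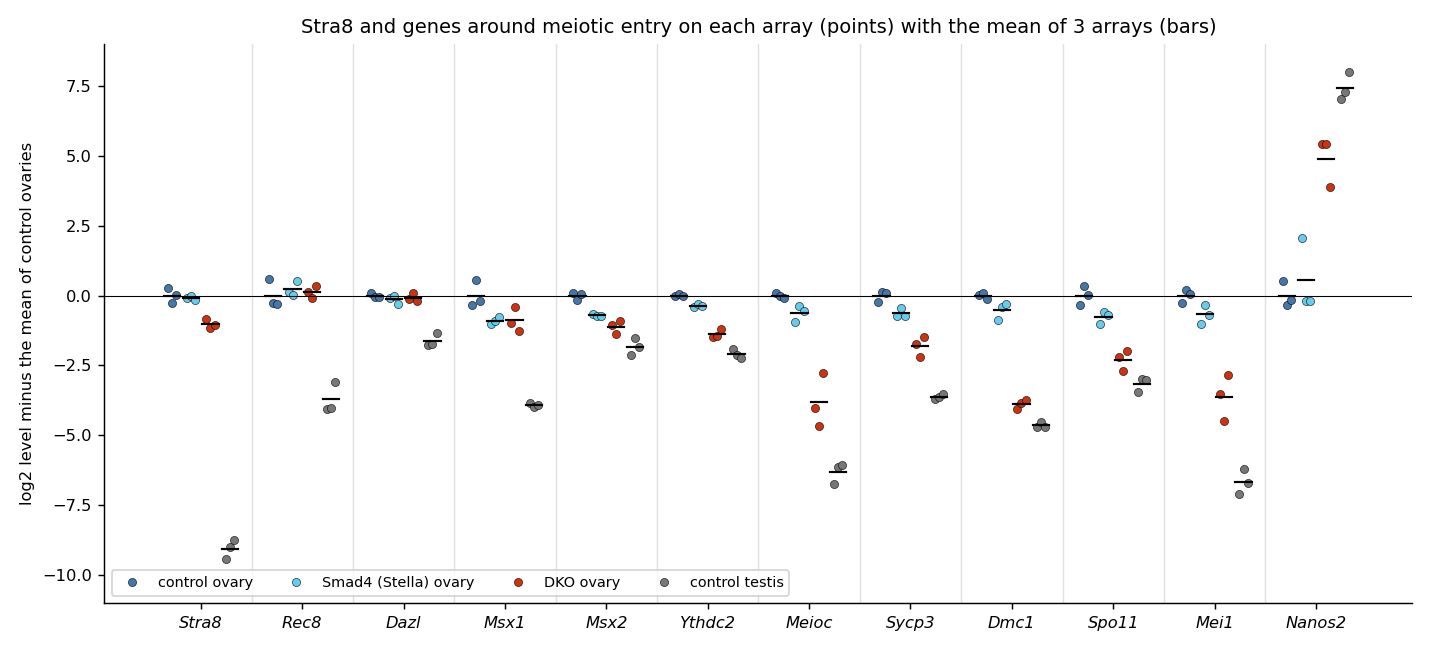
Stra8 and 11 genes around meiotic entry on each of the 12 arrays, as the log2 level minus the mean of the control ovaries; points are arrays and bars are the mean of 3. In DKO ovaries Dmc1, Meioc and Mei1 differ from control ovaries by -3.88, -3.82 and -3.62 and Stra8 by -1.02. Rec8 lies among the control ovaries, and Dazl lies close to them, with DKO arrays on both sides of their range. Nanos2 was not above background in control ovaries.

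Genes of other steps of the pathway were compared in the same way. With the meiotic genes, the lists held 84 genes, of which 81 were on the array and 68 were tested. In DKO against control ovaries 7 of the 68 were called higher and 12 lower, where 14.7% of all genes were called. Of these 19 calls, 9 fell among the 11 tested genes of the meiotic list. No other list had more than 2 genes called higher or more than 1 lower, so the total does not describe those lists. In Smad4 (Stella) against control ovaries 1 was higher (0.271% of all genes called). This was Adh4, which was not above background on any control ovary array. In DKO against Smad4 (Stella) ovaries 3 were higher and 7 lower (8.45%), and in testes 14 were higher and 19 lower (34.0%). All 19 DKO calls against control ovaries kept their direction within slide 2, and 18 of them were at least 1.5-fold there. The arrays of slide 2 also entered these calls, so this is no independent check of them. With normexp background correction 5 of the 68 were called in DKO against control ovaries and 18 in testes, rather than 19 and 33. Taking the brightest probe of each gene ended the calls of Rdh10 and Rxra in DKO against control ovaries and of Rdh10, Crebbp and Tgm2 in testes. With the slide as a block, the calls of Nr6a1 and Hoxa4 in DKO against control ovaries, of Prame and Nanos2 in DKO against Smad4 (Stella) ovaries, of Adh4 in Smad4 (Stella) against control ovaries, and of Hoxa4, Hoxb5, Tshz1, Nr2f6 and Aldh1a7 in testes were lost.

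Of 14 tested retinol and retinal dehydrogenases, 1 was lower and 1 higher in DKO than in control ovaries, a count near the 14.7% of all genes called there. Rdh10, which carries out the first oxidation of retinol in the embryo, was lower by 0.59 ± 0.10 in DKO ovaries (adjusted p = 0.00177), close to the 1.5-fold limit. Its DKO call was lost without control ovary 1, control ovary 2 or DKO ovary 2, and after quantile normalization. In testes Rdh10 was lower by 0.78 (adjusted p = 0.000101), but the brightest probe alone gave -0.28 and no call. Adh4, an alcohol dehydrogenase, was at -4.15, -3.93 and -4.17 for DKO ovaries, -5.70, -5.40 and -5.66 for the Smad4 (Stella) ovaries and -2.76, -2.57 and -2.13 for testes, and was above background on 0 of 3 control ovary arrays. The signals of the groups did not overlap, but those of the control ovaries were below detection. Adh4 was at least 2.83-fold higher in DKO ovaries (adjusted p = 1.04e-05) and at least 8.56-fold higher in testes (adjusted p = 1.14e-07) than in control ovaries. In Smad4 (Stella) ovaries 2 of 3 arrays measured Adh4 above background, and the call (adjusted p = 0.0262) was lost without control ovary 2 or any 1 of the Smad4 (Stella) ovaries. It held under 5 of the 15 alternatives. The lowest detected signals of the control ovary arrays were -5.14, -5.91 and -5.70, a range that holds the Smad4 (Stella) levels of Adh4. No fold is therefore given between these groups. Adh1, another alcohol dehydrogenase, showed the largest testis difference of the dehydrogenase list, at 6.15 ± 0.37 (adjusted p = 6.42e-07), and 0 called differences among ovaries. Rdh13 and Aldh1a7 were also higher in testes, by 0.96 and 0.97, the latter not without control ovary 2, control ovary 3, control testis 1 or control testis 3.

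Of 7 tested genes of retinoid uptake, storage and binding, Dgat1, an acyltransferase that can esterify retinol, was called lower in DKO ovaries, by 0.996 against control ovaries (adjusted p = 0.000832) and 0.87 against Smad4 (Stella) ovaries (adjusted p = 0.00437), and in testes by 1.18. Rbp4, the retinol carrier of plasma, and Fabp5, a fatty acid-binding protein that can carry retinoic acid, were higher in testes, by 0.79 and 0.98. Fabp5 was above background on 3 of 3 testis arrays, 1 of 3 control ovary arrays and no array of the other ovaries. It thus passed the filter only through testes, and its value rests on control ovary signals mostly not above background. The Rbp4 call was lost without control ovary 1 or control testis 1, and the Fabp5 call without control ovary 1, control testis 2 or control testis 3. Of 9 tested retinoid X and partner receptors, Rxra, a partner of the retinoic acid receptors, was higher in DKO ovaries, by 0.70 ± 0.10 (adjusted p = 0.000543). Rxra was at 0.39, 0.42 and 0.54 for DKO ovaries, 0.22, 0.11 and 0.16 for the Smad4 (Stella) ovaries and -0.37, -0.09 and -0.29 for control ovaries, and the 3 groups did not overlap. The Rxra call was also lost with normexp background correction. Rxrb differed by 0.19 in DKO against control ovaries (adjusted p = 0.473). Nr2f6, an orphan receptor, was higher by 0.67 in DKO ovaries and 0.65 in testes, calls that were lost without control ovary 3, and Nr2f2, an orphan receptor of interstitial cells, was higher by 1.03 in testes. Nr6a1, the germ cell nuclear factor, was lower by 0.79 in DKO ovaries, not without control ovary 1 or with the slide as a block, and lower by 2.83 in testes. Of 11 tested receptor coregulators, Ncoa3, a coactivator, was lower by 0.69 in DKO ovaries and 0.75 in testes. Prame, a gene known from tumours as a repressor of retinoic acid receptors, was above background on 2 of 3 DKO arrays, 3 of 3 testis arrays and no array of the control or Smad4 (Stella) ovaries, and was at least 1.53-fold higher in DKO than in control ovaries (adjusted p = 0.00169), at least 1.81-fold higher than in Smad4 (Stella) ovaries (adjusted p = 0.00256, lost with the slide as a block) and at least 6.62-fold higher in testes (adjusted p = 1.44e-05). Crebbp, a coactivator, was higher in testes by 0.66. The 1 tested gene of retinoic acid breakdown beyond the Cyp26 genes above, Cyp2s1, was called in no comparison.

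Of 16 tested genes known to respond to retinoic acid, Rec8 included, 2 were called higher in DKO than in control ovaries and none lower, against 6.69% and 7.98% of all genes, and the median was 0.01. The homeobox gene Hoxa4 was higher by 0.84 ± 0.22 (adjusted p = 0.0204), a call that held under 8 of the 15 alternatives. It was lost without control ovary 1 or DKO ovary 3, without the filter and with the slide as a block. Normexp background correction, a fit of only the 2 groups and the methods' t-test also ended it. In testes 2 response genes were higher, Bhlhe40, a repressor of transcription (1.34), and Tgm2, a transglutaminase (1.03), and 6 were lower, against 17.2% and 16.8% of all genes, with a median of -0.10 over the list. Among the latter were Rec8 above, Hoxa4 (-1.12), Hoxb5 (-1.13), Tshz1 (-0.78) and Gbx2. Hoxa4 was above background on 1 of 3 testis arrays and 2 of 3 control ovary arrays, so its testis difference rests in part on signals near background. The testis call of Hoxa4 was lost with the slide as a block, with normexp background correction and without the filter, and across the 15 alternatives the difference ranged from -1.39 to -0.05. Gbx2, a homeobox gene, was above background on 0 of 3 testis arrays and at least 8.30-fold higher in control ovaries. The calls of Hoxb5 and Tshz1 were each lost without control ovary 2, control ovary 3, control testis 2 or control testis 3. Of the 6 tested markers of the mesonephros, which lies beside the gonad, 1 was higher and 2 were lower in testes. The mean level of that list, 8 genes with the dim ones, ranged from -4.98 to -4.89 in testes and from -4.74 to -3.72 in control ovaries, and Ret and Wnt9b were above background in neither. The part of mesonephric tissue in these differences was not tested.

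**Figure D4:**
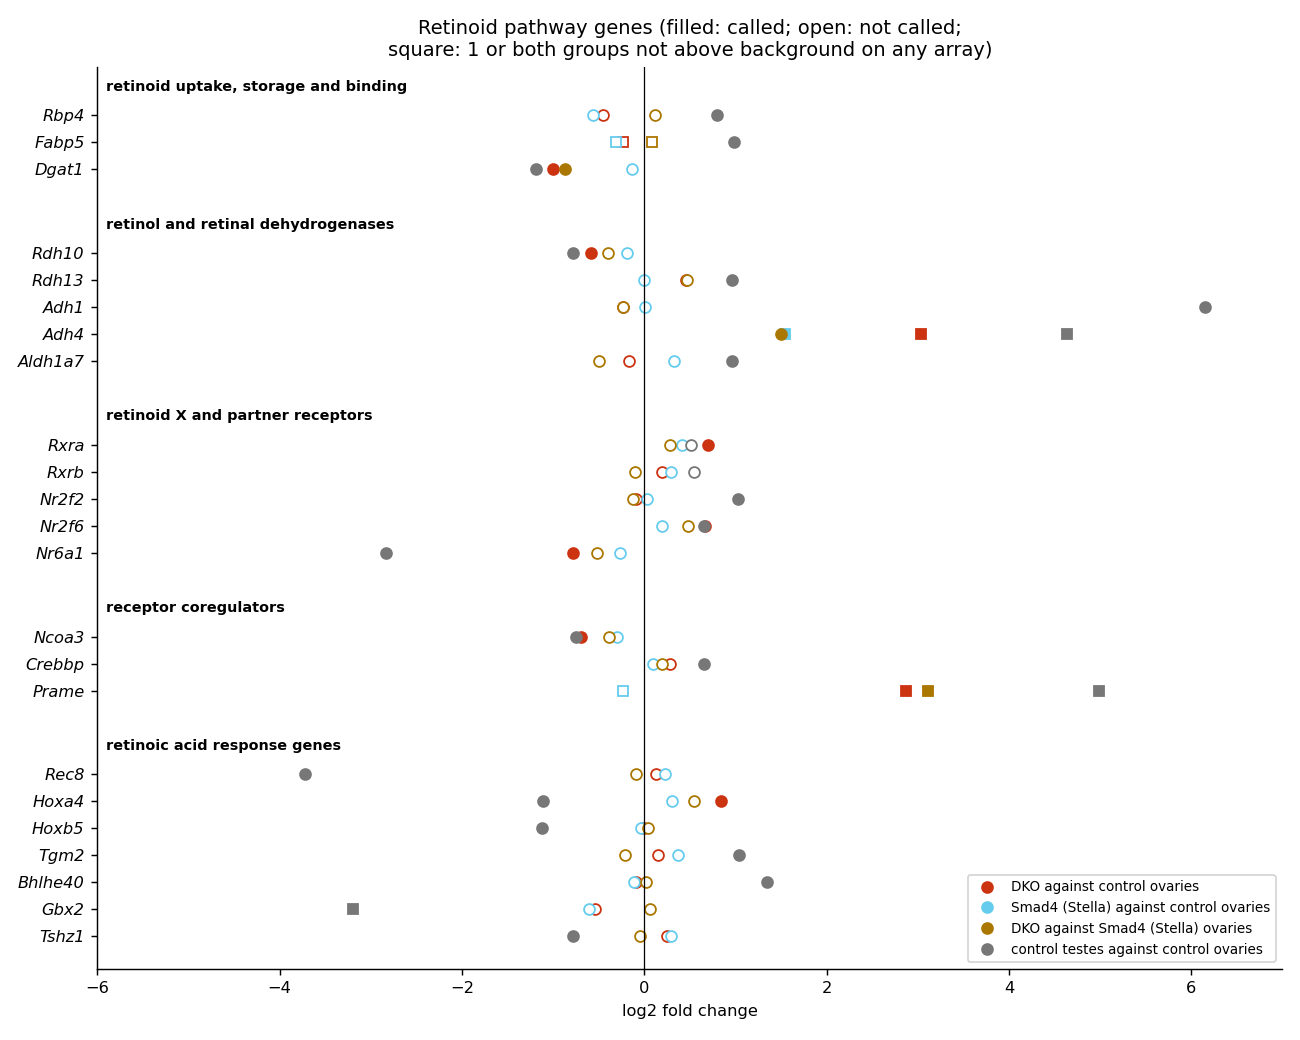
Log2 fold changes of the named retinoid pathway genes by list in the 4 comparisons; filled symbols were called, open symbols were not, and squares mark a comparison in which at least 1 group was above background on no array, so that the plotted value is no measured fold. Most filled symbols are those of control testes against control ovaries, and Adh4, Prame and Rxra have one for DKO against control ovaries.

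Genes whose pattern was nearest to that of each called gene were ranked by the root mean square difference of the centred log2 levels over the 12 arrays and 18811 genes. Nearest to Stra8 were Calb1 (0.64), Xist (0.91), Isx (1.06), 6330403A02Rik (1.14) and Fst (1.17). Each of these was far lower in testes, as Stra8 was, but none of them was as far below the other ovaries in the DKO group. Calb1, for example, had means of 2.27 in control ovaries, 2.45 in Smad4 (Stella) ovaries, 2.07 in DKO ovaries and -5.31 in testes. Nearest to Cyp26b1 were Jak3 and Prokr2 (0.26 each) and Star (0.31), the cholesterol transporter of steroidogenic cells. Star had means of -3.52 in control ovaries, -3.11 in Smad4 (Stella) ovaries, -3.73 in DKO ovaries and 1.74 in testes. The nearest genes were Lama2, the transcript ENSMUST00000114270 and Susd3 for Aldh1a1 (0.20 to 0.21), Adpgk, Aldh5a1 and Cst8 for Aldh1a2 (0.09 to 0.11), Rab40b, Frmd3 and Mctp1 for Rarb (0.15 each), and Nudt18, Usp54 and Atp1b1 for Crabp1 (0.14 to 0.17).

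**Figure D5:**
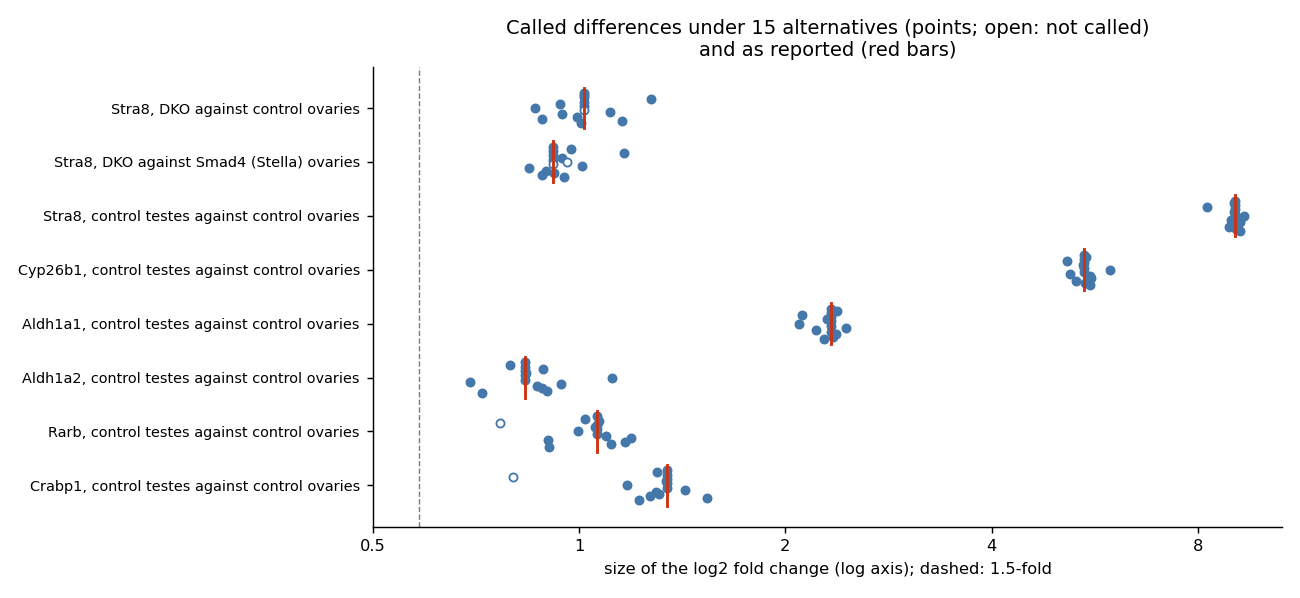
Size of the log2 fold change, on a log axis, of the 8 called differences of Stra8, Cyp26b1, Aldh1a1, Aldh1a2, Rarb and Crabp1 under 15 alternatives each (points, open where not called) and as reported (red bars). Open points occur for both DKO differences of Stra8 and for Rarb and Crabp1 in testes; the sizes for Stra8 in DKO against control ovaries span 0.86 to 1.27.

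Across 15 alternatives, the 8 called differences of these genes kept their direction in all. For Stra8, the log2 difference of DKO from control ovaries ranged from -1.27 to -0.86 and was called under 14 of the 15, and that against Smad4 (Stella) ovaries ranged from -1.16 to -0.85 and was called under 13. In testes, Stra8 ranged from -9.33 to -8.24, Cyp26b1 from 5.15 to 5.94, Aldh1a1 from 2.09 to 2.45 and Aldh1a2 from -1.12 to -0.69, all called under the 15. Normexp background correction moved the median of all genes by 0.26 in DKO against control ovaries, 0.28 in DKO against Smad4 (Stella) ovaries and 0.12 in testes. Relative to these medians, the log2 difference of Stra8 was -1.53, -1.44 and -8.37.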

How the data were processed

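The authors deposited the scanner output of 12 one-colour Agilent arrays (Cy3), 1 per sample, made with Feature Extraction 11.0.1.1, in which the intensity of each spot is given after background subtraction. A deposited table held the same intensities rounded, on the linear scale and unscaled. Probe coordinates are those of the array design on mm9, while promoters are RefSeq's on GRCm38.p6, and the 2 builds were not mixed.

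From the 43379 spots that were not controls, log2 intensity minus the 75th percentile of the array was computed from the deposited values. Spots marked as outliers were dropped, repeated spots were averaged, and a probe was kept when well above background on all 3 arrays of at least 1 group (27309 of 41174). Kept probes of a gene were averaged. A reference symbol was matched for 27050 probes, and the design's name was kept for the others. Groups came from the sample labels. They were compared in 1 limma 3.58.1 model of 4 groups (R 4.3.3, data.table version 1.17.8), with no block and with Benjamini-Hochberg adjustment over all 18843 genes. SEs and 95% intervals are from that model. The calls were tested on simulated data. For a gene above background on no array of a group, the fold is a bound, in which each dim array stands at its lowest signal among detected probes, or at the gene's own signal where that is higher. The adjusted p beside a bound is that of the limma fit to the signals as measured, not a test of the bound.

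The genes named were the 10 members and, of the pathway lists, each gene called in at least 1 of 4 comparisons, with Rec8, Rdh10, Rxra, Rxrb, Dazl, Msx1, Msx2 and Nanos2 whatever their values. A few genes that met this rule are not reported here, although list counts include them. For likeness, 5 genes were named for Stra8 and 3 for each other called member. The members, lists and tests were chosen with earlier results of these data known. The marker lists were germ cells, Sertoli, fetal Leydig and pregranulosa cells, mesonephros, surface epithelium, interstitium, endothelium, macrophages and erythroid cells. Between DKO and control ovaries, surface epithelium had 1 of 5 called (Msln, higher), interstitium 1 of 5 (Ptch1, higher), mesonephros 1 of 6 (Lhx1, higher), endothelium 0 of 6, macrophages 1 of 4 (Cd68, higher) and erythroid cells 2 of 5 (lower). In testes, 4 of 5 surface epithelium, 1 of 6 endothelial (Kdr) and 4 of 5 erythroid markers were lower, and 0 of 4 macrophage markers were called. Of all genes, 14.7% were called between DKO and control ovaries and 34.0% between testes and control ovaries. Alternatives were a 2-fold threshold, no filter, normexp background correction (offset 50), quantile normalization, median scaling of the deposited table, 1 probe per gene (the brightest), a block for the slide, a block for the replicate number, a fit of only the 2 groups at hand, omission of each array in turn and the t-test of the methods.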

Additional observations from a re-analysis of the deposited data

How the results depend on the processing

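Of the log2 fold changes of the 9 tested genes under alternatives, 496 stayed on their side of the threshold with the same direction, 5 lost their call, 5 gained one and 34 changed sign, none of which was called. Calls of Stra8 were lost with the methods' t-test in DKO against control (-1.02) and against Smad4 (Stella) ovaries (-0.92), and in the latter with the slide as a block (-0.96). Its sign in Smad4 (Stella) against control ovaries turned with quantile normalization (0.0052), the slide as a block (0.10) and without control ovary 1 (0.033). Members called in DKO against control ovaries were 0 with the t-test and 1 to 2 when an array was left out, and in DKO against Smad4 (Stella) ovaries 0 with the slide as a block, the t-test or a 2-fold threshold. Pathway genes called in DKO against control ovaries were 11 at 2-fold and 5 with normexp. In Smad4 (Stella) against control ovaries they were 0 with no filter, normexp, only the groups compared, the slide as a block, the replicate block or the t-test, and 0 to 1 with an array left out. In DKO against Smad4 (Stella) ovaries they were 4 with normexp and 2 with the t-test, and in testes 18 with normexp. Of the 63 called pathway differences, 22 were called under every alternative and 0 changed sign. Over all genes, normexp called 913 in DKO against control ovaries, 222 in DKO against Smad4 (Stella) ovaries and 2667 in testes, rather than 2764, 1592 and 6399, and the cause was not tested. Lifting the filter moved the median of all genes to -0.16 in Smad4 (Stella) against control ovaries and -0.12 in testes.

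Signs also turned with normexp for Cyp26b1 (0.19), Aldh1a2 (-0.24) in DKO against control, Rara (-0.12) in Smad4 (Stella) against control, and Cyp26b1 (0.075), Rarb (0.011) and Crabp1 (0.23) in DKO against Smad4 (Stella) ovaries, where quantile normalization turned Aldh1a2 (0.0019). The slide as a block turned Crabp1 (-0.064) in DKO against control, Rara (-0.18), Rarg (0.14) and Crabp2 (0.090) in Smad4 (Stella) against control, and Rarb (0.10) in DKO against Smad4 (Stella) ovaries. With an array left out, values in DKO against control ovaries ranged from -0.37 to 0.013 for Cyp26b1, -0.034 to 0.24 for Aldh1a2, -0.35 to 0.65 for Rarg, -0.064 to 0.070 for Crabp1 and -0.12 to 1.02 for Crabp2. In Smad4 (Stella) against control ovaries they ranged from -0.24 to 0.033 for Stra8, -0.031 to 0.40 for Cyp26b1, -0.12 to 0.31 for Rara, -0.28 to 0.0063 for Rarb and -0.65 to 0.24 for Crabp2. In DKO against Smad4 (Stella) ovaries they ranged from -0.153 to 0.056 for Aldh1a2 and from -0.257 to 0.073 for Rarb, and in testes from -0.059 to 0.88 for Rarg.

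Same-numbered arrays of different groups did not deviate together (r from -0.18 to 0.15 over 18 pairs, 2 above 0.1), so no pairing by number was seen. Weak correlations of this kind cannot show that samples came from separate litters. With the replicate block, Stra8 kept -1.02 (adjusted p = 0.00822) and -0.92 (adjusted p = 0.0243), and no member's call changed. Genes near background (Rara, Rarg, Crabp2 and Cyp26a1) are limited by their signal over background.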
